A study of Homo sapiens with 60 samples.

Results

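Serine, the folate-bound one-carbon units made from it, proline, and asparagine are built by a small set of enzymes, and 10 of their genes were followed here through exposure of astrocyte-derived cells to 3 metals: PHGDH, PSAT1, PSPH, SHMT2, MTHFD2, MTHFD1L, ALDH1L2, ASNS, PYCR1, and ALDH18A1. They were taken by gene symbol out of 62703 genes in the count table. The cell line, 1321N1, comes from a human brain tumor, an astrocytoma. Cells were exposed to 2.55 µM arsenic as sodium metaarsenite, 2.3 µM cadmium as cadmium chloride, or 20 µM mercury as mercury chloride, or were left non-treated, for 1.5, 3, 6, 12, or 24 h. The concentrations were chosen by the authors to be about equally toxic to this line, no other genotype or agent was used, and the control of a metal was the non-treated group of its own time point, which the 3 metals share. RNA was sequenced from the 3′ end of transcripts, with 3 libraries in each of 20 groups and 60 libraries in all. The labels call the libraries of a group technical replicates, so that the p values given here may measure only the spread between these libraries and not between separate cultures.

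Serine is made from an intermediate of glycolysis by PHGDH, PSAT1, and PSPH in turn. SHMT2 then splits serine into glycine and a carbon unit held by folate in the mitochondrion, and MTHFD2, MTHFD1L, and ALDH1L2 oxidize or release that unit, which leaves as formate for purine and thymidylate synthesis and, in the step of ALDH1L2, yields NADPH. ALDH18A1 and PYCR1 make proline from glutamate, and ASNS makes asparagine from aspartate and glutamine. Many of these genes are textbook targets of ATF4, a transcription factor made in larger amounts when a kinase of the integrated stress response phosphorylates the initiation factor eIF2. In the brain, astrocytes are known as the main makers of serine.

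ATF4 and its C/EBP partners are known to bind a composite sequence with the core TGATGNAA, and the promoters of the members were searched for it and for the cores of sequences bound by a metal-sensing factor (TGCNCNC), by the antioxidant factor NRF2 (TGACNNNGC), and by cyclic AMP-responsive factors (TGACGTCA). The last pair begin with the same 4 letters. RefSeq promoters (GRCh38.p14) matched 6 of the 10 members by symbol, and the 250 bases before each start site were read on both strands. ASNS and MTHFD1L held TGATGNAA, which 3.14% of 35116 promoters of this length held. That share is of single promoters, whereas a member was counted if any of its promoters matched. ASNS has 2 listed promoters and MTHFD1L has 4, and in both genes some of them lacked the core. In ASNS the match began 68 bases before the start, and in MTHFD1L 129 or 90 bases before the start, depending on the start site. The windows around these matches are shown because they hold the core known for this group of genes, with the core in capitals. They lie at chr7:97872449-97872496 on the minus strand and at chr6:150866337-150866384 on the plus strand, and both are within the span of the gene in the annotation of the count table:
ASNS window: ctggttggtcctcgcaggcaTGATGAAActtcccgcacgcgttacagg
MTHFD1L window: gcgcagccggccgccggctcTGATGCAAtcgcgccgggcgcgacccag

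The promoters of PHGDH, PSAT1, and MTHFD2, the 3 members called higher with every metal at 12 h, are printed whole, at chr1:119711684-119711933, chr9:78296875-78297124, and chr2:74198365-74198614, all on the plus strand. They held no TGATGNAA, TGACNNNGC, or TGACGTCA. Capitals mark TGCNCNC on either strand, which 49.1% of all promoters held, and MTHFD2 held none. The start sites used for PHGDH and MTHFD2 lie inside the gene as the count table spans it, and that of PSAT1 lies at its first base:
PHGDH promoter: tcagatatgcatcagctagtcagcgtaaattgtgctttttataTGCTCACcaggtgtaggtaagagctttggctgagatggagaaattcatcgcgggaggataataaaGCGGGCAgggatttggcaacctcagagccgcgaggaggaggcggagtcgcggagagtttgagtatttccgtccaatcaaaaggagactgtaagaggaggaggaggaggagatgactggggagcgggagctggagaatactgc
PSAT1 promoter: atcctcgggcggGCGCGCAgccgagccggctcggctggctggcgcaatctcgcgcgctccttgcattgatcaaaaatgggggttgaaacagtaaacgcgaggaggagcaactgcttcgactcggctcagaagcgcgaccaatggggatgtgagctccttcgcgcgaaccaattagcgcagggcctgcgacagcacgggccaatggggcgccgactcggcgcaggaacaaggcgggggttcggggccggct
MTHFD2 promoter: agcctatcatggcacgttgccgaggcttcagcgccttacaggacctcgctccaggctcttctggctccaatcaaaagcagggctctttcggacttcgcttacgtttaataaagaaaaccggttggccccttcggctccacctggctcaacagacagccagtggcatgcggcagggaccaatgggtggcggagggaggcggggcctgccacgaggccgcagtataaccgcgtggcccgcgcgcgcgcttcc

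A match is only a run of letters, and its absence says nothing about any factor. TGCNCNC was also held by ASNS and MTHFD1L. TGACNNNGC and TGACGTCA, held by 10.9% and 1.65% of all promoters, were held by 0 of the 6 members.

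Each library had between 2215276 and 4404609 counted reads, with overlapping ranges for the metals and medians of 3248664 for non-treated, 3307489 for arsenic, 3227059 for cadmium, and 3427793 for mercury libraries. The labels name no batch. Of the markers fixed for the cell type, the astrocyte genes GFAP, S100B, AQP4, and ALDH1L1 had at most 3 counts in any library. SLC1A2 and SLC1A3 had at most 5 and 13 counts, so that the defining genes of mature astrocytes were at or near 0. The astrocyte genes SOX9 (median 78.3 CPM) and GJA1 (20.4 CPM) were present. Of the glioma and progenitor markers, VIM (4488 CPM) and CD44 (394 CPM) were present, whereas NES was low (3.41 CPM). Markers of immune cells (0 to 3.47 CPM summed over 3 genes), endothelium, and oligodendrocytes stayed near 0 with all metals. Of 3 epithelial markers, EPCAM and CDH1 had at most 8 counts in a library, but KRT18, a keratin, ranged from 37.4 to 89.2 CPM and was higher with mercury at 12 and 24 h (log2 fold change 0.73 at 24 h, edgeR adjusted p 1.04e-04). Of 3 neuron markers, RBFOX3 and SNAP25 had at most 7 counts, and SYT1 ranged from 5.85 to 21.8 CPM and was higher with mercury at 6 h (edgeR adjusted p 8.38e-04) and 12 h (0.0381), with adjusted p of 0.244 or more with each metal at 24 h. The part of KRT18 and SYT1 in the results was not tested.

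Of the 10 members, 9 had enough counts to be tested among 12341 genes. The level of a gene is given as CPM, the count scaled to an equal library total after normalization, and its change as the log2 fold change (LFC) with its standard error (SE). A gene was called at an adjusted p under 0.05 in edgeR's quasi-likelihood test, with Benjamini-Hochberg adjustment over all genes of the comparison. PHGDH, PSAT1, and MTHFD2 were called higher with all 3 metals at some time, SHMT2 and ALDH1L2 with arsenic and mercury, and MTHFD1L and PYCR1 with arsenic alone. In edgeR's direct test of arsenic against mercury at 24 h, MTHFD1L (LFC 0.17, adjusted p 0.491) and PYCR1 (LFC 0.22, adjusted p 0.212) were not called. Against cadmium at 24 h, PYCR1 was not called by edgeR (LFC 0.32, adjusted p 0.0556) but was by DESeq2 (0.0387). PSPH and ALDH18A1 were not called with any metal. In the 15 comparisons with non-treated cells, 0 of 9 members were called lower, by edgeR or DESeq2. At an unadjusted p under 0.05, 1 member each was lower with arsenic at 1.5 and 3 h and with cadmium at 1.5 and 6 h. The call was first made with mercury, at 3 h, then with arsenic, at 6 h, and with cadmium at 12 h. These times say when a call was made and not when a rise began. Compared directly at 3 h, arsenic and mercury differed in 2 of 9 members, beside 1.89% of all genes. At 6 h, arsenic and cadmium differed in 0 of 9, beside 1.18%, and DESeq2 called 2. In RNA of a whole culture, a change in every cell and a change in the make-up of the culture cannot be told apart.

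With arsenic, the number of the 9 members called higher was 0, 0, 3, 5, and 7 at the successive times. Of all genes tested, 0.0648%, 0.122%, 0.608%, 2.37%, and 6.54% were called higher at these times, and 0.00810%, 0.0162%, 0.308%, 1.74%, and 7.75% lower. The median LFC of the 9 members was -0.08, -0.02, 0.22, 0.50, and 0.68 at the 5 times, and that of all genes at 24 h was 0.00. With mercury, 0, 2, 4, 5, and 4 members were called higher, beside 0.478%, 1.39%, 4.49%, 8.89%, and 13.9% of all genes, with 0.0891%, 0.154%, 2.99%, 7.16%, and 13.9% lower. The median LFC of the members was -0.04, 0.06, 0.33, 0.35, and 0.26, and that of all genes at 24 h was -0.02. With cadmium, 0, 0, 0, 3, and 1 members were called higher, beside 0%, 0.203%, 1.60%, 5.19%, and 1.56% of all genes, with 0%, 0%, 0.446%, 2.99%, and 0.632% lower. The median LFC of the members under cadmium was 0.19 at 12 h and 0.00 at 24 h, beside -0.02 and -0.01 for all genes. Where 0 members were called higher, the unadjusted p was under 0.05 for 2 higher members with arsenic at 1.5 h, 1 with cadmium at 3 h, 2 with cadmium at 6 h, and 0 with arsenic at 3 h, cadmium at 1.5 h, and mercury at 1.5 h. DESeq2 called 1 member at these times, with cadmium at 6 h.

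**Figure D1:**
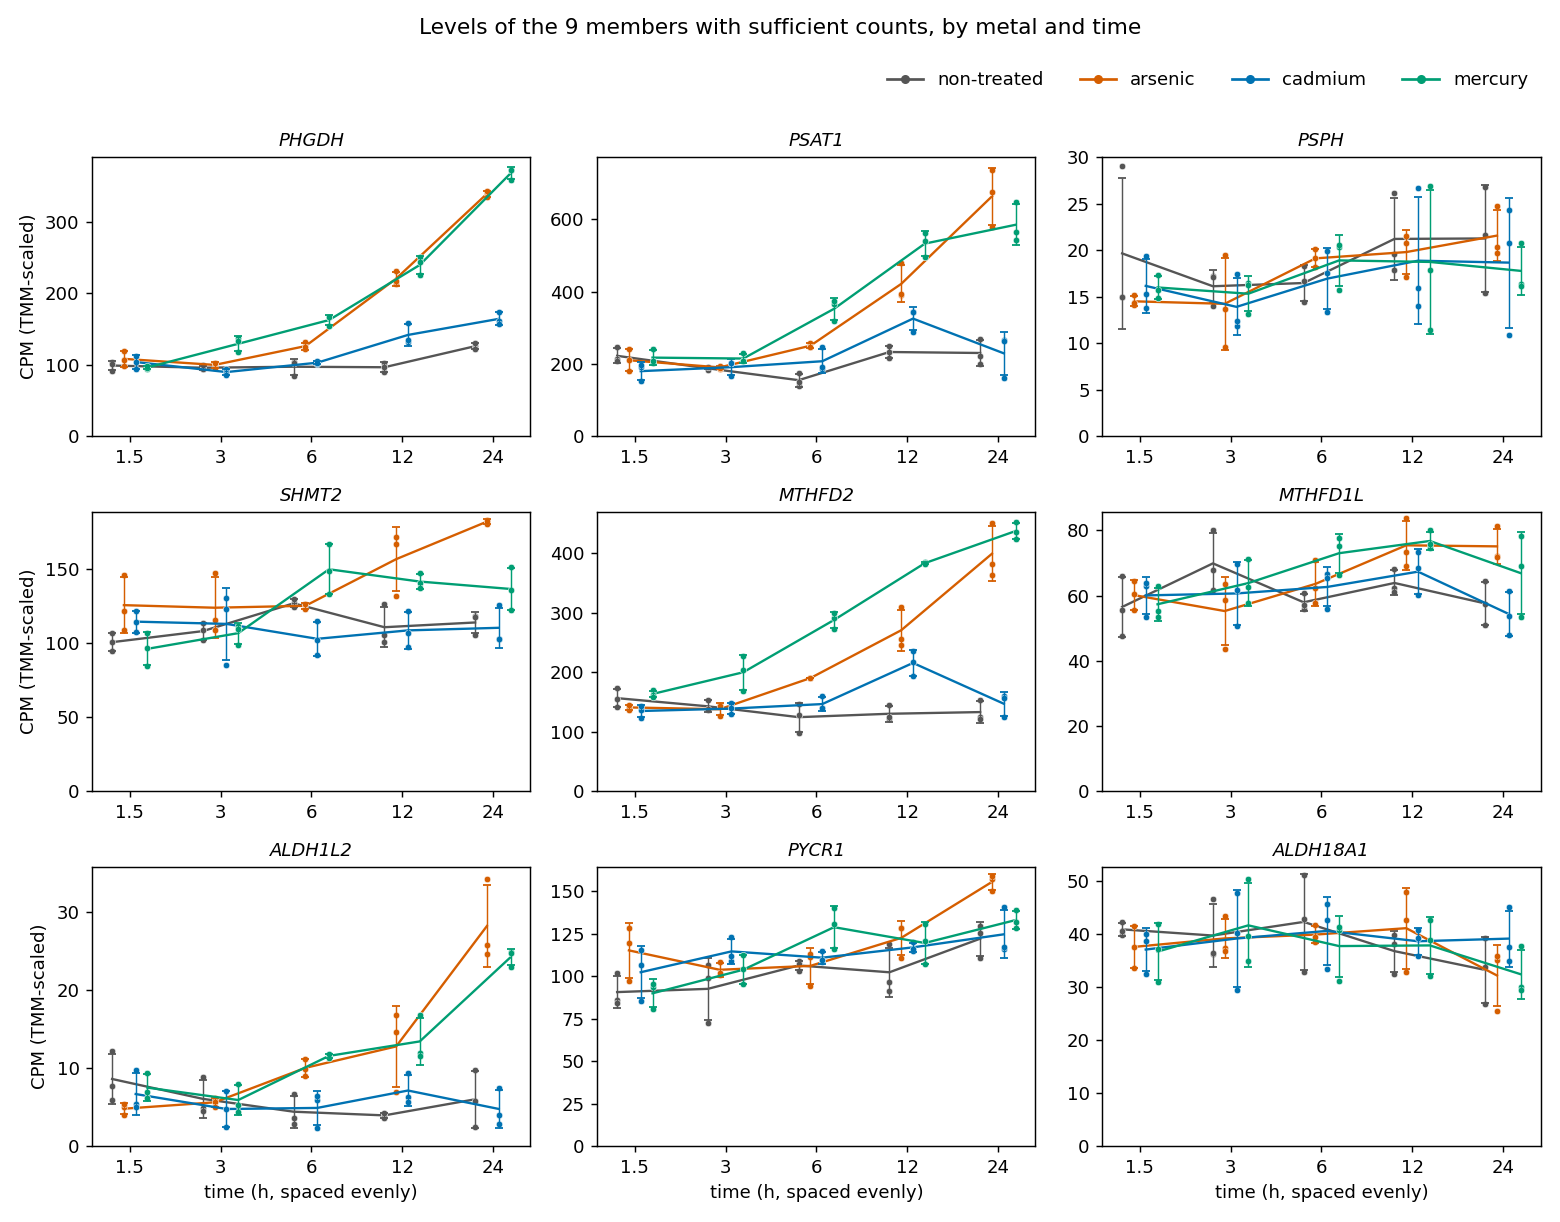
Levels of the 9 tested members in CPM (linear axes from 0) against time in h, with a panel for each gene. Points are the 3 libraries of a group, lines join group means, and bars are the SD. PHGDH, PSAT1, MTHFD2, and ALDH1L2 climb to 24 h with arsenic and mercury, cadmium lies between them and the non-treated cells at 12 h, and PSPH and ALDH18A1 overlap in all groups at 24 h.

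**Figure D2:**
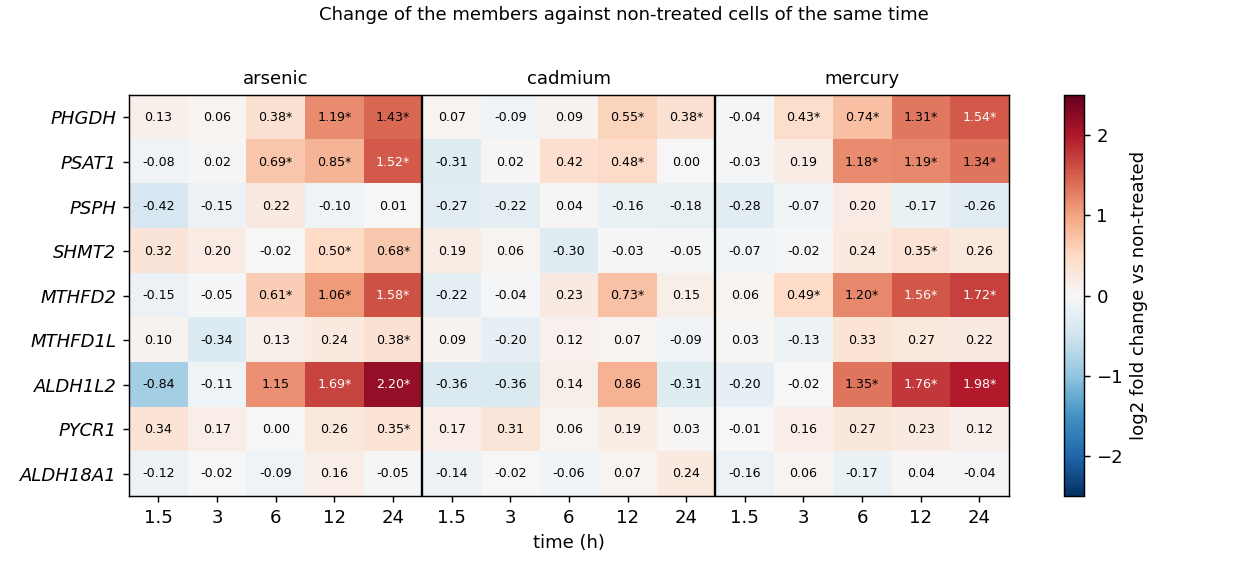
LFC of each member (rows) against time-matched non-treated cells for the 3 metals at each of the 5 times (columns), with an asterisk at an adjusted p under 0.05. There are 15 asterisks for arsenic, 15 for mercury, and 4 for cadmium, and PSPH and ALDH18A1 have none.

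PHGDH, the dehydrogenase that commits carbon to serine, rose with all 3 metals. At 24 h it stood at 122, 126.5, and 130.1 CPM in non-treated cells. With arsenic it reached 335, 340.5, and 343 CPM, with mercury 358, 372, and 373 CPM, and with cadmium 157, 161, and 175 CPM. No library of a metal overlapped the non-treated ones, and the arsenic libraries lay just below the mercury libraries. The LFC was 1.43 with arsenic (SE 0.086, adjusted p 7.92e-22), 1.54 with mercury (SE 0.086, adjusted p 6.44e-24), and 0.38 with cadmium (SE 0.087, adjusted p 0.00535). The cadmium call at 24 h was lost when low counts were not filtered (adjusted p 0.0867) or when only the 6 libraries compared were fitted (0.170).

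The rise of PHGDH was first called with mercury at 3 h, when the mercury libraries had 118, 134, and 137 CPM and the non-treated libraries 94.2, 94.3, and 99.6 CPM (LFC 0.43, SE 0.090, adjusted p 0.00127). Under mercury the LFC was then 0.74 at 6 h and 1.31 at 12 h. Under arsenic it was 0.38 at 6 h (SE 0.091, adjusted p 0.0165) and 1.19 at 12 h. The 6 h arsenic call was lost without arsenic replicate 1 (adjusted p 0.115) and without non-treated replicate 3 (0.265), the lowest of the non-treated libraries at 84.8 CPM. It was also lost without the filter on low counts (0.150) and with only the libraries compared (0.0564). Under cadmium the LFC was 0.55 at 12 h (SE 0.090, adjusted p 5.80e-06), with 132, 135, and 159 CPM beside 89.6, 97.4, and 103 CPM.

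PSAT1, the aminotransferase of the second step, rose to a similar extent with arsenic and mercury. Its non-treated levels at 24 h were 199.5, 223, and 269 CPM. They were 579, 675, and 735 CPM with arsenic and 541, 564, and 648 CPM with mercury, without overlap with the non-treated cells (LFC 1.52, SE 0.124, adjusted p 7.09e-16 with arsenic and LFC 1.34, SE 0.124, adjusted p 4.46e-14 with mercury). With cadmium it stood at 160.2, 263, and 265.5 CPM, 1 library below the non-treated ones and the others within their range (LFC 0.00, 95% interval -0.25 to 0.25). At 12 h, in contrast, the cadmium libraries had 289, 343, and 345 CPM and lay above the non-treated ones with 217, 232, and 250.1 CPM (LFC 0.48, SE 0.125, adjusted p 0.00726). This call was lost without cadmium replicate 3 (adjusted p 0.0542) and without non-treated replicate 3 (0.0506).

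At 6 h, PSAT1 had 140.0, 151, and 175 CPM in non-treated cells, 246, 247, and 259 CPM with arsenic (LFC 0.69, adjusted p 3.64e-04), and 318, 366, and 373 CPM with mercury (LFC 1.18, adjusted p 5.56e-11). Non-treated cells themselves were lower at 6 h than at 1.5 h (LFC -0.52, adjusted p 0.0370), when they had 207, 215, and 246 CPM. The arsenic mean at 6 h was 250.5 CPM, beside non-treated means of 155 CPM at 6 h and 222.5 CPM at 1.5 h. With cadmium at 6 h the LFC of PSAT1 was 0.42 and was not called, but it was called without the filter on low counts (adjusted p 0.0123) and by DESeq2 (0.0446).

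PSPH, the phosphatase that releases serine, was not called in any of the 15 comparisons. It ranged from 9.63 to 29.1 CPM over the 60 libraries, from 22 to 107 counts. At 24 h the non-treated libraries had 15.4, 21.6, and 26.8 CPM, the arsenic libraries 19.7, 20.3, and 24.8 CPM, and the mercury libraries 16.2, 16.4, and 20.8 CPM, all overlapping. The 95% interval of its LFC ran from -0.48 to 0.51 with arsenic, from -0.68 to 0.31 with cadmium, and from -0.76 to 0.24 with mercury, so that a rise like that of PHGDH or PSAT1 with arsenic or mercury lay outside the intervals. In the last 400 bases of its transcript, where reads of this method fall, 58 of 351 stretches of 50 bases (16.5%) also occur in other loci, most often in SLC7A7, and the other 9 members have none.

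Among the mitochondrial enzymes, MTHFD2, a dehydrogenase and cyclohydrolase on the folate-bound unit that is low in most adult tissues and high in dividing cells, rose with all 3 metals. At 24 h it stood at 121, 125, and 154 CPM in non-treated cells, 364, 382, and 452 CPM with arsenic, and 424, 437, and 452 CPM with mercury. Both metals lay far above the non-treated libraries and overlapped each other (LFC 1.58, SE 0.109, adjusted p 6.04e-19 with arsenic and LFC 1.72, SE 0.110, adjusted p 5.43e-21 with mercury). With cadmium the 3 libraries had 124, 157, and 160.5 CPM and overlapped the non-treated ones (LFC 0.15, 95% interval -0.07 to 0.37). At 12 h the cadmium libraries had 194, 217, and 237 CPM, above the non-treated libraries with 121, 124, and 146 CPM (LFC 0.73, SE 0.111, adjusted p 1.32e-06).

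MTHFD2 was already higher with mercury at 3 h, at 168, 205, and 228 CPM beside 136, 138, and 154 CPM (LFC 0.49, SE 0.110, adjusted p 0.00425). This call was lost without mercury replicate 2 (adjusted p 0.142), non-treated replicate 2 (0.0535), or non-treated replicate 3 (0.0520), and 1 member in place of 2 was then called at this time. The mercury LFC of MTHFD2 was 1.20 at 6 h and 1.56 at 12 h, and the arsenic LFC 0.61 at 6 h and 1.06 at 12 h.

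ALDH1L2, which oxidizes formyl-folate in the mitochondrion, had the largest LFC of the members at 24 h and also the largest SE. Its non-treated levels at 24 h were 2.46, 5.77, and 9.79 CPM. With arsenic they were 24.6, 25.8, and 34.2 CPM (LFC 2.20, SE 0.335, adjusted p 7.07e-07), and with mercury 23.0, 24.8, and 24.8 CPM (LFC 1.98, SE 0.338, adjusted p 3.86e-06). With cadmium they were 2.86, 3.95, and 7.50 CPM and overlapped the non-treated levels (LFC -0.31, 95% interval -1.08 to 0.46). Its counts ranged from 6 to 116 in a library, and 3 counts corresponded to 0.682 to 1.36 CPM, which covers counting error only. At 6 h ALDH1L2 was called with mercury (LFC 1.35, adjusted p 0.0156) but not without non-treated replicate 1 (0.110) or replicate 2 (0.0792). At 12 h it was called with arsenic (LFC 1.69, adjusted p 0.00166) and mercury (LFC 1.76, adjusted p 3.63e-04). The arsenic libraries then had 6.90, 14.6, and 16.8 CPM. The non-treated mean at 12 h, 3.95 CPM, was the lowest of all times, beside 8.61 CPM at 1.5 h. Over all times the non-treated libraries ranged from 2.46 to 12.2 CPM, and the lowest arsenic library at 12 h lay within this range. All mercury libraries at 6 h, from 11.3 to 11.8 CPM, also lay within it. At 12 h the mercury libraries had 11.5, 11.9, and 16.8 CPM, of which only the last lay above this range.

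SHMT2, the hydroxymethyltransferase that feeds this route, rose less. Its 24 h levels were 106, 118, and 118 CPM in non-treated cells and 180.3, 183, and 183.5 CPM with arsenic, without overlap (LFC 0.68, SE 0.120, adjusted p 1.82e-05). With mercury the levels were 123, 136, and 151 CPM, above all non-treated libraries but not called (LFC 0.26, 95% interval 0.02 to 0.50, adjusted p 0.103). With cadmium they overlapped at 103, 103, and 126 CPM (LFC -0.05). At 12 h the LFC was 0.50 with arsenic (adjusted p 0.00521) and 0.35 with mercury (adjusted p 0.0355). The 12 h arsenic call was lost without arsenic replicate 1 (adjusted p 0.0664) or non-treated replicate 3 (0.0550). The 12 h mercury call was lost without any of the 3 mercury replicates or without non-treated replicate 2 or 3, with adjusted p between 0.0561 and 0.167.

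MTHFD1L, the mitochondrial synthetase that releases formate, was called only with arsenic at 24 h. The arsenic libraries had 71.8, 72.3, and 81.3 CPM and the non-treated libraries 51.0, 57.5, and 64.3 CPM (LFC 0.38, SE 0.135, adjusted p 0.0442). The call was lost without any of the 3 arsenic replicates or without non-treated replicate 1 or 2 (adjusted p 0.0658 to 0.227), without the filter on low counts (0.112), and with only the libraries compared (0.0795). With mercury MTHFD1L had 53.3, 69.1, and 78.4 CPM (LFC 0.22, adjusted p 0.248) and with cadmium 48.0, 53.9, and 61.3 CPM (LFC -0.09), overlapping the non-treated libraries.

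Of the proline enzymes, PYCR1, the reductase of the last step, was called with arsenic at 24 h, at 150.2, 157, and 159 CPM beside 111, 125, and 130 CPM in non-treated cells (LFC 0.35, SE 0.114, adjusted p 0.0274). The call was lost without arsenic replicate 1 or 2 or non-treated replicate 1 or 3 (adjusted p 0.0536 to 0.110) and without the filter on low counts (0.0633). Mercury (128, 132, and 139 CPM) and cadmium (116, 117, and 141 CPM) overlapped the non-treated levels. ALDH18A1, which starts the route from glutamate, was not called in any of the 15 comparisons and ranged from 25.5 to 51.0 CPM. Its LFC at 24 h was -0.05 with arsenic (95% interval -0.41 to 0.30), 0.24 with cadmium (-0.11 to 0.58), and -0.04 with mercury (-0.40 to 0.31). A rise of ALDH18A1 as large as that of PHGDH with arsenic or mercury lay outside these intervals.

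ASNS, the asparagine synthetase whose promoter holds the core in capitals above, could not be assessed. It had 10 counts over the 60 libraries, of which 8 were in the 15 arsenic libraries, 1 in the non-treated, 1 in the mercury, and 0 in the cadmium libraries. It was at 0 in 54 libraries and at most at 3 counts, and 3 counts is the limit that a count of 0 allows. The overlap of its end with other genes was read from a later release of the gene annotation than the counting used. There, 389 of the last 400 bases of its transcript (97.2%) are shared with exons of a same-strand gene, ENSG00000284707. The counting left out reads that overlapped more than 1 gene. That gene had 0 counts in all 60 libraries. The low count of ASNS therefore gives no level of its transcript.

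Of the annotated pseudogenes of the members, MTHFD2P1 had 4 counts over all libraries and PSAT1P1 had 2, beside 40121 counts of MTHFD2 and 56966 of PSAT1. A pseudogene of ASNS, ASNSP1, had 21 counts, more than the 10 of ASNS itself, and a second entry of that name 2. The others had 0.

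The metals were next compared with each other at the same time point. At 24 h arsenic and cadmium differed in 6 of 9 members, beside 10.2% of all genes in either direction, and all 6 were higher with arsenic. The difference was 2.51 on the log2 scale for ALDH1L2 (SE 0.345, adjusted p 7.76e-08), 1.52 for PSAT1, 1.43 for MTHFD2, 1.05 for PHGDH, 0.73 for SHMT2, and 0.47 for MTHFD1L (adjusted p 0.0159). At 12 h 2 members differed, beside 5.77% of all genes, PHGDH by 0.64 and SHMT2 by 0.53, both higher with arsenic. DESeq2 and the stricter filter on low counts called 4 members at 12 h. None differed at 1.5, 3, or 6 h, beside 0%, 0.138%, and 1.18% of all genes, with 0, 0, and 5 members at an unadjusted p under 0.05, and DESeq2 called 0, 0, and 2. The MTHFD1L call at 24 h was lost without arsenic replicate 3 (adjusted p 0.0927), cadmium replicate 1 (0.121), or cadmium replicate 3 (0.0531), and with only the libraries compared (0.0734).

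Cadmium and mercury differed in 4 of 9 members at 24 h, beside 20.0% of all genes. All 4 were lower with cadmium, with an LFC of -1.16 for PHGDH (SE 0.085, adjusted p 7.99e-18), -1.34 for PSAT1, -1.57 for MTHFD2, and -2.29 for ALDH1L2 (SE 0.348). At 12 h 3 members differed (3.29% of all genes), PHGDH, PSAT1, and MTHFD2. At 6 h 4 differed (3.78%), these 3 and SHMT2. At 3 h 2 differed (1.78%), PHGDH with an LFC of -0.53 and MTHFD2 with an LFC of -0.53, all lower with cadmium. Without mercury replicate 2, the count at 3 h was 1, and the SHMT2 call at 6 h was lost without the 6 h mercury replicate 2 (adjusted p 0.0573). At 1.5 h none did, beside 0.656% of all genes, with 3 members at an unadjusted p under 0.05 and 0 by DESeq2.

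Arsenic and mercury were compared in the same way. At 3 h, PHGDH (LFC -0.37, adjusted p 0.0102) and MTHFD2 (LFC -0.54, adjusted p 0.00124) were lower with arsenic, 2 of 9 members beside 1.89% of all genes. The count at 3 h was 0 without mercury replicate 2 and 1 without arsenic replicate 2 or mercury replicate 3. At 6 h these and PSAT1 were lower with arsenic (LFC -0.37, -0.60, and -0.49), 3 of 9 members beside 4.48%, and the PSAT1 call was lost without mercury replicate 1 (adjusted p 0.0518) or 2 (0.0556). At 12 h only MTHFD2 was (LFC -0.50, adjusted p 6.94e-04), 1 of 9 beside 6.84%, and without arsenic replicate 3 the count was 2. At 24 h SHMT2 was the only member called, higher with arsenic by 0.41 (adjusted p 0.0135), 1 of 9 beside 11.4%, and it was not called without mercury replicate 1 or 2. For PHGDH, whose arsenic libraries all lay below the mercury libraries at 24 h, the difference was not called (LFC -0.12, adjusted p 0.416) and had a 95% interval of -0.28 to 0.05. The interval was -0.06 to 0.42 for PSAT1, -0.34 to 0.08 for MTHFD2, and -0.37 to 0.82 for ALDH1L2. Whether the difference between arsenic and mercury changed with time was not tested. At 1.5 h none differed, beside 1.56% of all genes, with 2 members at an unadjusted p under 0.05 and 0 by DESeq2, but without arsenic replicate 3 the count was 2.

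**Figure D3:**
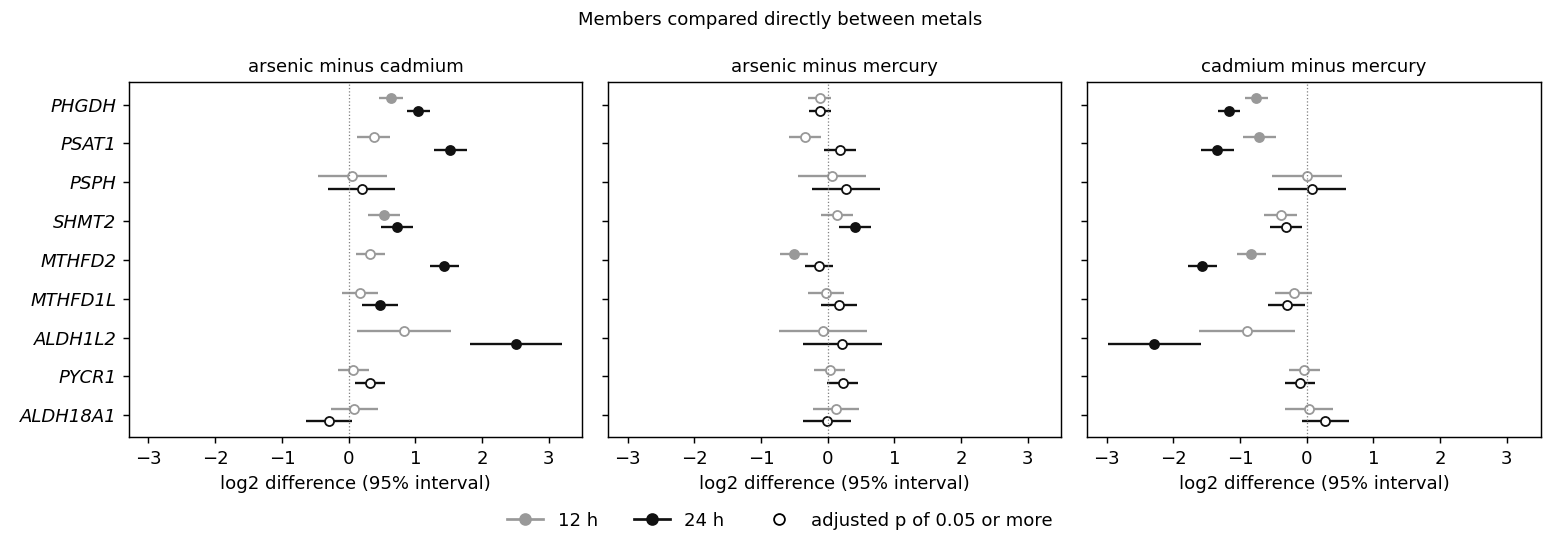
Log2 difference of each member between metals at 12 h (gray) and 24 h (black), with 95% intervals and filled points at an adjusted p under 0.05. The 24 h points of PHGDH, PSAT1, MTHFD2, and ALDH1L2 lie above 1 for arsenic minus cadmium, near 0 for arsenic minus mercury, and below -1 for cadmium minus mercury.

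Whether the effect of a metal changed from 12 to 24 h was tested as the difference between the LFC at 24 h and that at 12 h. With arsenic, 1 of 9 members passed, beside 1.57% of all genes: the effect on PSAT1 was larger at 24 h by 0.67 (SE 0.173, 95% interval 0.32 to 1.02, adjusted p 0.0277). The call was lost without replicate 1 or 2 of arsenic at 12 h, arsenic at 24 h, non-treated cells at 12 h, or non-treated cells at 24 h, with adjusted p between 0.0510 and 0.118. Without replicate 3 of arsenic at 12 h, or of non-treated cells at 12 or 24 h, the count was 2, with MTHFD2 as the second gene, as by DESeq2. With cadmium, the differences for MTHFD2 (-0.58, 95% interval -0.89 to -0.26, adjusted p 0.0876), PSAT1 (-0.48, 95% interval -0.83 to -0.13, adjusted p 0.280), and ALDH1L2 (-1.17, 95% interval -2.29 to -0.05, adjusted p 0.460) were negative but missed the threshold, 0 of 9 members beside 0.381% of all genes. At an unadjusted p under 0.05, 3 of 9 members passed with cadmium, and DESeq2 called 1, MTHFD2, which edgeR also called without non-treated replicate 2 at 12 h. With mercury, 0 of 9 members passed (0.624% of all genes), with values between -0.10 and 0.23, and 0 also at an unadjusted p under 0.05 and by DESeq2.

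In non-treated cells, later times were compared with 1.5 h. At 3 h and at 12 h 0 members differed, beside 0.122% and 4.09% of all genes, with 1 and 2 members at an unadjusted p under 0.05 and 0 and 0 by DESeq2. At 6 h PSAT1 was lower, 1 of 9 beside 0.486%, and at 24 h PHGDH (LFC 0.35, adjusted p 0.0172) and PYCR1 (LFC 0.43, adjusted p 0.0274) were higher, 2 of 9 beside 3.29%. The 6 h call was lost without any of the 3 replicates at 1.5 h or without replicate 1 or 3 at 6 h. The 24 h count was 0 without replicate 2 or 3 at 1.5 h or replicate 1 at 24 h and 1 without replicate 2 or 3 at 24 h. Over time, the non-treated levels of PHGDH moved between 84.8 and 130.1 CPM and those of PYCR1 between 72.2 and 130 CPM, so that only controls of equal time were used.

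Several members have a paralog that runs the same reaction in another compartment or form. MTHFD2L, the close relative of MTHFD2 in the same compartment, rose with mercury at 24 h, from a mean of 1.49 ± 0.848 CPM to 11.0 ± 1.58 CPM (SD, n = 3; LFC 2.84, SE 0.549, adjusted p 3.71e-05). In these non-treated libraries 3 counts gave 0.773 to 0.922 CPM, so that this LFC rests on a non-treated level near the floor. MTHFD2L was not called with arsenic (LFC 0.76, 95% interval -0.49 to 2.01) or cadmium (LFC 1.10, 95% interval -0.10 to 2.29). MTHFD1, the cytosolic enzyme that runs the reactions of MTHFD2 and MTHFD1L, fell with arsenic (LFC -0.54, adjusted p 4.54e-04) and mercury (LFC -0.43, adjusted p 0.00296), from 82.4 CPM to 56.5 and 60.9 CPM. PYCR3, the cytosolic relative of PYCR1, fell with mercury (LFC -1.27, adjusted p 1.61e-04), from 13.4 to 5.55 CPM. For SHMT1, the cytosolic relative of SHMT2, the LFC was 0.40, 0.44, and 0.15 under arsenic, cadmium, and mercury, none of which was called. ALDH1L1, the cytosolic relative of ALDH1L2, had 0 counts.

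**Figure D4:**
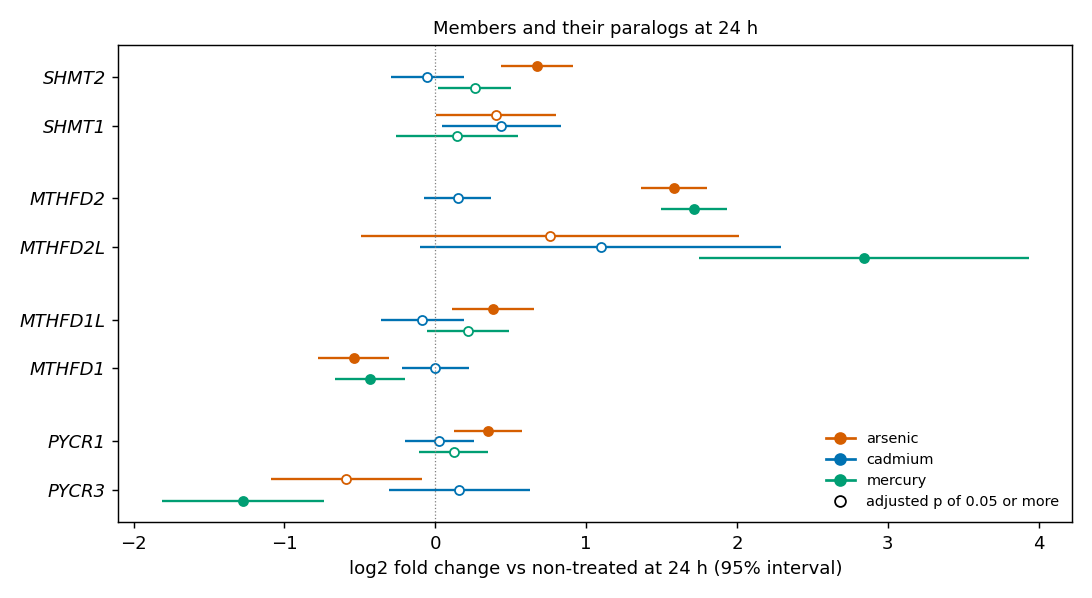
LFC against non-treated cells at 24 h with 95% intervals for SHMT2, MTHFD2, MTHFD1L, and PYCR1 and their paralogs, by metal, with filled points at an adjusted p under 0.05. MTHFD2L with mercury (2.84) lies farthest to the right, and MTHFD1 with arsenic and mercury and PYCR3 with mercury lie to the left of 0.

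The other genes around these routes were looked at as lists, mainly at 24 h. At that time 6.54% of all genes tested were called higher and 7.75% lower with arsenic, 1.56% and 0.632% with cadmium, and 13.9% and 13.9% with mercury, and a count near these shares is no result about a list. Of 11 tested genes of cytosolic and nuclear folate metabolism, 0 were called higher with any metal, and 3 were lower with mercury, 1 with arsenic, and 0 with cadmium. Their median LFC was -0.23, -0.13, and 0.00 in this order. Besides MTHFD1, those lower with mercury were MTR, methionine synthase (LFC -0.62), and FPGS, which adds glutamates to folate (LFC -0.49). At 12 h MTR was lower with cadmium (LFC -0.50, adjusted p 0.0448). Of 6 tested genes of mitochondrial folate metabolism beyond the members, MTHFD2L was the only gene called higher, with mercury. SFXN1, a mitochondrial serine carrier, was lower with arsenic (LFC -0.36, adjusted p 0.00847), and DLD, a subunit of the glycine cleavage system, was lower with mercury (LFC -0.43, adjusted p 0.00279). SFXN3, a relative of SFXN1, had an LFC of -0.50 with mercury at 24 h (adjusted p 0.0812) and was lower at 12 h (LFC -0.78, adjusted p 0.0165).

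Of 9 tested genes that use serine and glycine, 3 were called higher with mercury, 2 with arsenic, and 0 with cadmium at 24 h, beside 13.9%, 6.54%, and 1.56% of all genes, and 0 lower. At 12 h the counts were 3, 2, and 1, beside 8.89%, 2.37%, and 5.19%. CTH, which makes cysteine from a product of serine and homocysteine, rose from 2.95 ± 1.24 CPM to 23.3 ± 4.59 CPM with arsenic (LFC 2.94, adjusted p 1.63e-10) and 31.2 ± 3.84 CPM with mercury (LFC 3.36, adjusted p 4.47e-13; SD, n = 3). With cadmium it had 6.18 ± 0.103 CPM (LFC 1.03, adjusted p 0.157), but it was called at 12 h (LFC 2.17, adjusted p 1.47e-05). SARS1, the transfer RNA ligase for serine, rose with arsenic (LFC 0.85) and mercury (LFC 0.62), and SPTLC2, a subunit of the enzyme that joins serine to palmitate, with mercury (LFC 0.77).

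Of 8 tested genes of proline, ornithine, and glutamate, 0 were called with arsenic and cadmium at 24 h, and 3 were higher and 2 lower with mercury, beside 13.9% of all genes in each direction. Higher were OAT, ornithine aminotransferase (LFC 0.76), and P4HA2 and P4HA1, prolyl hydroxylase subunits (LFC 0.71 and 0.49). Lower were PYCR3 and ALDH4A1, which breaks down a proline intermediate (LFC -0.78). At 12 h PYCR3 was lower with cadmium (LFC -0.91) and mercury (LFC -1.82), the only call of the list at that time.

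Of 9 tested genes of asparagine, aspartate, and alanine, 3 were higher with arsenic and with mercury and 0 with cadmium at 24 h, beside 6.54%, 13.9%, and 1.56% of all genes, and 0 were lower. These were GPT2, the mitochondrial alanine aminotransferase (LFC 1.49 and 1.21), GOT1, the cytosolic aspartate aminotransferase (LFC 0.90 and 0.92), and NARS1, the transfer RNA ligase for asparagine (LFC 0.54 and 0.54). At 24 h with cadmium their LFC was 0.08, 0.20, and 0.17. At 12 h all 3 were called higher with each metal, beside 2.37%, 5.19%, and 8.89% of all genes with arsenic, cadmium, and mercury, and their LFC with cadmium was 0.42, 0.43, and 0.25.

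Of 11 factors and kinases known as regulators of these genes, 9 rose with mercury, 8 with arsenic, and 2 with cadmium at 24 h, beside 13.9%, 6.54%, and 1.56% of all genes, and 1 fell, with mercury (the lower gene was EIF2AK4, the kinase that senses amino acid shortage, at an LFC of -0.29). Their median LFC was 0.96, 0.64, and 0.21. At 12 h 7 rose with mercury, 6 with arsenic, and 6 with cadmium, beside 8.89%, 2.37%, and 5.19% of all genes, with a median LFC of 0.82, 0.53, and 0.51. With cadmium at 12 h, 2 fell, beside 2.99% of all genes: ATF5, a relative of ATF4 (LFC -0.88), and EIF2AK1, a kinase of eIF2 (LFC -0.34). ATF4 rose from 298 ± 30.8 CPM to 609 ± 63.2 CPM with arsenic (LFC 1.03, adjusted p 3.92e-09) and 685 ± 23.9 CPM with mercury (LFC 1.20, adjusted p 1.56e-11; SD, n = 3), and with cadmium it stood at 356 ± 113 CPM (LFC 0.25, adjusted p 0.419), having been called at 12 h (LFC 0.61, adjusted p 9.00e-04). TRIB3, a pseudokinase gene switched on by ATF4, had an LFC of 2.35 and 2.63 under arsenic and mercury, and 0.58, not called, under cadmium (adjusted p 0.0944), where it was called at 12 h (LFC 1.37). DDIT3 and CEBPB, which encode C/EBP family partners, were called with all 3 metals (LFC 2.13, 1.47, and 2.55 for DDIT3 and 1.73, 0.73, and 2.23 for CEBPB).

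Over the 20 group means of log2 CPM, PSAT1 and MTHFD2 were the most alike of the members (Pearson's r 0.959), followed by PHGDH and PSAT1 (0.941). The r of ALDH18A1 with the other 8 members lay between -0.57 and -0.19, but ALDH18A1 was not called with any metal. The groups share time points, metals, and normalization, so that these values only describe the data. The genes most like the mean profile of the 9 members were GPT2 (r 0.974), SLC1A4 (0.969), SEL1L3 (0.964), CARS1 (0.957), PCK2 (0.956), SLC6A9 (0.953), JDP2 (0.949), and NNMT (0.944). SLC1A4 and SLC6A9 are carriers of neutral amino acids and of glycine, CARS1 is the transfer RNA ligase for cysteine, and PCK2 is the mitochondrial kinase that makes phosphoenolpyruvate. The 24 h LFC of SLC6A9 was 2.51, 0.23, and 2.10 for arsenic, cadmium, and mercury, and that of PCK2 1.71, -0.03, and 0.73.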

How the data were processed

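The authors aligned 100-base single-end 3′ reads to GRCh38 with STAR 2.7.9a and counted those on exons of the GENCODE v43 basic annotation with summarizeOverlaps (GenomicAlignments) in Union mode with strand, which drops reads on more than 1 gene. The deposited values are raw counts per gene, without normalization; the 92 spike-in rows held 0 counts and were left out. Coordinates are those of the count table (GRCh38). The last bases of the transcripts of the members were read from a later GENCODE release than that used for counting. The identifiers and spans of the members in it were those of the count table.

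One model of all 60 libraries was fitted (edgeR 4.0.16, R 4.3.3), with TMM scaling (factors 0.934 to 1.03), filterByExpr (minimum count 10, minimum total 15), and a coefficient for each of 20 groups. The biological coefficient of variation was 0.120. Its quasi-likelihood p values were Benjamini-Hochberg adjusted over 12341 genes within each of 15 metal, 15 direct, 3 later-effect, and 4 non-treated comparisons. On simulated counts for arsenic at 24 h, 170 of 200 changed genes were called, with 13 unchanged ones, among 12088 genes. The changed genes were drawn only from well-counted genes, with a spread fitted to these data. Changes in genes with as few counts as ALDH1L2, or as small as those called for MTHFD1L and PYCR1, were not simulated. Replicates were not copies (lowest chi-square per degree of freedom 2.02). Same-numbered libraries deviated with a median correlation of -0.00799, so they were treated as unpaired.

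The members, lists, and motifs were chosen with earlier results of these data known. Named genes are the members, their paralogs, up to 3 called genes per list by largest change at 24 h, and the 8 genes most alike in profile. SFXN1, P4HA1, P4HA2, EIF2AK1, EIF2AK4, ATF4, ATF5, KRT18, and SYT1 were named after their values were seen. Some genes of the lists are not reported here. Alternatives were RLE size factors, DESeq2 1.42.0, no filter or a stricter filter (30 counts in 3 libraries), a replicate block, fits of only the groups compared, glmTreat beyond an LFC of 1, and leaving out each library. Promoters are from RefSeq (GRCh38.p14).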

Additional observations from a re-analysis of the deposited data

Results flagged for a closer look

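The effect of arsenic on PSAT1 differed between time points: the LFC against non-treated cells was 1.52 at 24 h and 0.85 at 12 h, and the difference of 0.67 (SE 0.173) had an adjusted p of 0.0277 in edgeR's test of the difference. All 3 arsenic libraries at 24 h (579, 675, and 735 CPM) lay above all 3 at 12 h (389, 394, and 480.1 CPM), whereas the non-treated libraries of these times overlapped. The difference lay between 0.58 and 0.81 when 1 library was left out, and 8 of the 12 libraries were each needed for the call.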

How the results depend on the processing

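Calls of members did not change direction under any alternative run. The values that come next leave out glmTreat, which is counted after them. Of the 34 calls against non-treated cells, 7 of 204 values under other settings and 25 of 204 without 1 library missed the threshold. Of the 32 calls in the other comparisons, 7 of 192 and 34 of 198 did. Members called higher beyond an LFC of 1 (glmTreat) numbered 0 at 6 h, 0 at 12 h, and 4 at 24 h with arsenic, 0 at 12 and 24 h with cadmium, and 0 at 3 and 6 h and 2 at 12 h with mercury. Without a filter on low counts, 1 member was called with cadmium at 6 h and 0 at 24 h, 1 and 2 between arsenic and mercury at 3 and 12 h, and 1 between non-treated cells at 24 and 1.5 h. With the stricter filter, 4 were called between arsenic and cadmium at 12 h and 2 for the arsenic effect at 24 h minus 12 h. DESeq2 called 1 member with cadmium at 6 h, 2 and 4 between arsenic and cadmium at 6 and 12 h, 2 for the arsenic effect at 24 h minus 12 h, and 1 for that of cadmium. Within 1.5 times of the main counts, DESeq2 also called 7 between arsenic and cadmium at 24 h. Between cadmium and mercury it called 5, 4, and 5 at 6, 12, and 24 h. For the other settings in this paragraph, changes within 1.5 times are not listed. With only the groups compared, the count was 0 with cadmium at 24 h, 1 between arsenic and cadmium at 6 h, 1 and 2 between arsenic and mercury at 3 and 12 h, 2 between cadmium and mercury at 1.5 h, and 0 between non-treated cells at 24 and 1.5 h. The cause was not tested. RLE size factors left all 37 counts within 1.5 times the main ones.

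Without 1 library, the counts of members ranged from 0 to 1 for arsenic at 1.5 h (PYCR1 was called without arsenic replicate 3), 1 to 2 for mercury at 3 h, 0 to 2, 0 to 2, 1 to 2, and 0 to 1 between arsenic and mercury at 1.5, 3, 12, and 24 h, and 1 to 2 between cadmium and mercury at 3 h. They ranged from 0 to 2 for the arsenic effect and 0 to 1 for the cadmium effect at 24 h minus 12 h, and from 0 to 1 and 0 to 2 for non-treated cells at 6 and 24 h against 1.5 h. At 24 h with arsenic the range was 5 to 6, below the 7 found with all libraries.

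With the replicate number as a block, 7 members were called higher with arsenic and 4 with mercury at 24 h, as without it, and of the 37 counts only that between cadmium and mercury at 6 h moved, from 4 to 5 (ALDH1L2). Over 45 pairs the deviations of same-numbered treated and non-treated libraries correlated between -0.278 and 0.0837. These values cannot tell whether the numbers paired the cultures in the experiment. Depth limits ALDH1L2 and PSPH most, with as few as 6 and 22 counts in a library, and ASNS entirely.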
